A study of Homo sapiens with 14 samples.

Results

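The 34 genes described here encode proteins that build ribosomes in the nucleolus, out of 19923 genes counted in the study. They were taken by name from a list of nucleolar and ribosomal RNA processing genes known to respond to MYC proteins. All 34 were found in the count tables. The rule names genes and uses no measured values, but the list was chosen with earlier results of these data known. RNA was measured in SK-N-BE2, an established human neuroblastoma cell line in which the MYCN gene is amplified, as 14 libraries of polyadenylated RNA in 7 groups of 2. In batch 1 the cells were labelled wild type and received either water (H2O) or CoCl2, a cobalt salt widely used to imitate low oxygen, at 10 or 50 µM. Batch 2 held cells without treatment, labelled wild type (WT) or TET2 knockout 1, 2 and 3. The TET2 enzyme converts 5-methylcytosine in DNA to 5-hydroxymethylcytosine. How the knockouts were produced, whether each is 1 clone, how long CoCl2 was given and whether replicates were separate cultures are not given in the labels. P-values therefore measure only the spread between these libraries, which may be technical.

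Ribosomes are assembled mainly in the nucleolus, where RNA polymerase I transcribes a long precursor of the ribosomal RNAs. Small nucleolar ribonucleoproteins modify this precursor, box C/D particles by methylation and box H/ACA particles by pseudouridylation. Large assemblies then fold and cut it into the RNAs of the small (40S) and large (60S) subunits. MYC family proteins are known to bind and activate many genes of this process through E-box sequences, and MYCN is the amplified family member in this cell line.

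The promoters of the 34 genes were examined first for short sequences. The rule read no promoter, but it took genes known to respond to MYC proteins, which act through E-boxes. An excess of E-boxes is therefore not independent of how the genes were chosen. Windows of 300 bases around an annotated transcript start (250 before, 50 after; RefSeq, GRCh38.p14) were at hand for 27 of them, 33 windows in all. The canonical E-box, CACGTG, which reads the same on both strands, was found in the windows of 14 of the 27 genes (51.9%), against 10.95% of the 15085 genes of the count tables that had a window. The shorter ACGTG, which is part of CACGTG and also one form of the core of the hypoxia response element, was present on either strand in 18 genes (66.7%), against 28.7%. The related CACGCG was present in 8 (29.6%), against 18.3%, and the GC-box letters GGGCGG in 20 (74.1%), against 65.2%. A match describes the letters only, since no binding was measured in these files.

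The E-boxes lay close to the start site. Counted from the start site, with the first transcribed base as 1, they began between base -64 (LYAR) and base 36 (NOP2), and 13 of 14 began within 50 bases of it. Over the genes of the count tables, 36.6% of 1993 occurrences in such windows began within that distance, which was chosen after the members' positions were seen. Printed here are the 6 windows with an E-box whose genes had the smallest adjusted p at 50 µM CoCl2, to show how the letters sit in genes described further on. The capitals mark CACGTG, each strand is read 5′ to 3′, and start and end are positions in GRCh38.p14. These start sites lay 0 to 4876 bases from the outermost start of the gene in the count tables. WDR43 and UTP20 belong to the assembly that makes the small subunit, GNL3 is a nucleolar growth protein, MYBBP1A acts on Pol I transcription, GAR1 is a core box H/ACA protein, and UTP4 is the one of the 6 that rose.
WDR43 (chr2:28894417-28894716, plus strand): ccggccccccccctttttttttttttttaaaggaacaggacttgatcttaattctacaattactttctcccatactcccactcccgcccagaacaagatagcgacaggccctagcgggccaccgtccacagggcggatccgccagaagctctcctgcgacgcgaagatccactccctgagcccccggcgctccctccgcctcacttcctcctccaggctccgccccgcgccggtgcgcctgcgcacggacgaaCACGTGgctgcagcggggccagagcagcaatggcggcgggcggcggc
UTP20 (chr12:101279855-101280154, plus strand): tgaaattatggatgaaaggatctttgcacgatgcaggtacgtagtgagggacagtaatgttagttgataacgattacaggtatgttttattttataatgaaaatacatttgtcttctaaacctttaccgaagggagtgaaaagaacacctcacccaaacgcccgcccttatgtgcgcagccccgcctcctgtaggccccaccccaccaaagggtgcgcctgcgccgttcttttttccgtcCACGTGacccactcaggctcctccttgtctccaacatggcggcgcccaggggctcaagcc
GNL3 (chr3:52685782-52686081, plus strand): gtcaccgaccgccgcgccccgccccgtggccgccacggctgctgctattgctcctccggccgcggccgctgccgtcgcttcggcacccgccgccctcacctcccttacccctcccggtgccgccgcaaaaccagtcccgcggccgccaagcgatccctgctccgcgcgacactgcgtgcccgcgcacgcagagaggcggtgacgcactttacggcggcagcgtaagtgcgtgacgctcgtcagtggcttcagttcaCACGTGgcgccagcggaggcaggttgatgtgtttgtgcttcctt
MYBBP1A (chr17:4555335-4555634, minus strand): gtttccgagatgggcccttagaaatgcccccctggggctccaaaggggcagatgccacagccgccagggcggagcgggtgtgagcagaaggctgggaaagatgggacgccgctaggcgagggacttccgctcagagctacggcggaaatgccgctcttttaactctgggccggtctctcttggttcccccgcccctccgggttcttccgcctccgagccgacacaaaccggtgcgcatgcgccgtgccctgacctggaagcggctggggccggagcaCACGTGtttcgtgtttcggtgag
GAR1 (chr4:109815512-109815811, plus strand): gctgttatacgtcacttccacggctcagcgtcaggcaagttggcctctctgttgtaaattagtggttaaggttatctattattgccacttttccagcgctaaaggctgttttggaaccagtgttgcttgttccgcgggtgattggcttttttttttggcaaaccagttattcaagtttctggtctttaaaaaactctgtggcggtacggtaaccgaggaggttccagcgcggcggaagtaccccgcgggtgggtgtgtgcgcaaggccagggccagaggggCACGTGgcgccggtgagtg
UTP4 (chr16:69132399-69132698, plus strand): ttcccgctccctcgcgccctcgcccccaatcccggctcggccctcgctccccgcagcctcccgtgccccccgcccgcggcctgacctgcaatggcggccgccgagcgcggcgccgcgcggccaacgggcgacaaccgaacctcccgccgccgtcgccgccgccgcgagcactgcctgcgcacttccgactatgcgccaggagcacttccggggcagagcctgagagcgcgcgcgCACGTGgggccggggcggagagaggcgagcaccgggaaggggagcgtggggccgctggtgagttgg
In WDR43 the E-box began at base 4, in GNL3 at base 7, in MYBBP1A at base 28 and in GAR1 at base 32. In UTP20 it began at base -10 and in UTP4 at base -16, upstream of the start.

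**Figure D1:**
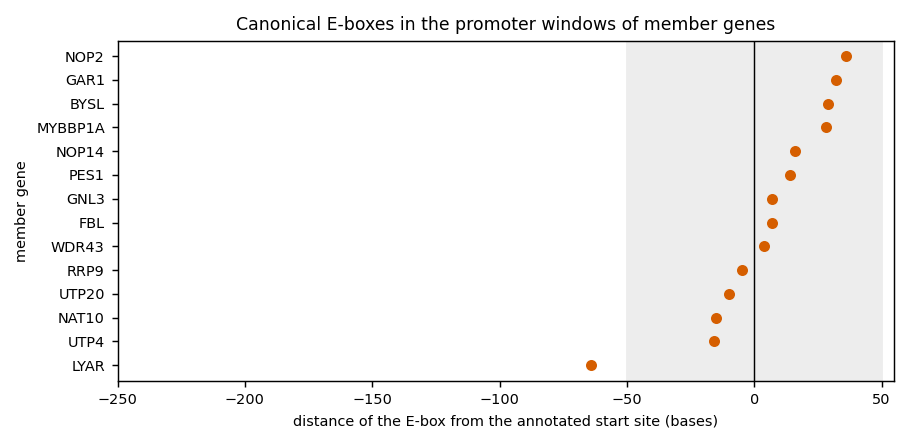
Distance in bases (x axis) from the annotated transcript start to the first base of each canonical E-box in the promoter windows of 14 member genes (y axis). The grey band marks 50 bases either side of the start, and 13 of the 14 points fall inside it.

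Libraries of batch 1 summed to between 31214128 and 39540111 counts. Those of batch 2 summed to between 52095024 and 59263320, where a count mostly stood for 1 read of a pair. All 34 genes passed the filter on low counts in both batches. The messenger RNA of the targeted gene was not lower under the knockout labels. In CPM (counts relative to the TMM-scaled library total) TET2 stood at 70.8 and 64.8 in WT, 80.4 and 76.6 in labelled knockout 1, 87.4 and 91.1 in 2, and 68.2 and 75.4 in 3. It was called higher than WT in labelled knockouts 1 (0.21 on the log2 scale, adjusted p = 0.000664) and 2 (0.40, adjusted p = 3.85e-12), so every knockout named here is a library group labelled as such. The 14 neuroblastoma marker genes summed to 9340 to 10522 CPM in batch 1 and 6067 to 6574 CPM in batch 2, none at 0 in any group. Leukocyte markers (9 genes) summed to 5.82 and 6.11 CPM in H2O and 19.3 and 19.8 CPM at 50 µM, with MS4A1 and ITGAM at 0 in both, and to 7.81 to 16.8 CPM in batch 2. Endothelial markers (10 genes) summed to 38.4 and 40.2 CPM in WT and 17.7 to 21.5 CPM in the labelled knockouts, and epithelial markers (7 genes) to at most 11.8 CPM in any library. The 16 mesenchymal markers summed to 1787 and 1789 CPM in H2O and 2056 and 2065 CPM at 50 µM, and to 1903 and 1917 CPM in WT against 1393 to 1604 CPM in the labelled knockouts. Their part in the results below was not tested.

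Levels of the 34 genes spanned a wide range. Per kilobase of exon, NCL (nucleolin) had the highest mean level in H2O at 331 RPKM (CPM per kilobase), followed by NPM1 (nucleophosmin) at 278, NOLC1 at 218 and FBL at 138. In WT the same 4 genes led, with NPM1 first at 579.6 RPKM and NCL next at 282. The median member was at 25.6 RPKM in H2O and 24.3 RPKM in WT. PPAN and NOP2 were lowest in both controls, NOP2 at 1.00 and 0.313 RPKM. NOP2 shares 54.4% of its exon bases with the same-strand gene AC006064.6 and PPAN 49.2% with P2RY11 and a readthrough gene, so their values are uncertain. In all, 7 members share over 10% of their exon bases with another gene: NOP2, PPAN, RRS1 and, with a gene on the opposite strand, NOP16, NHP2, POLR1C and HEATR1. Counting used no strand setting, so reads of the opposite-strand pairs were not told apart by strand. For the same-strand pairs strand could not tell them apart.

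At 50 µM CoCl2 most of the nucleolar genes fell, by at most 21.1%. Against H2O, 23 of 34 were lower at an adjusted p under 0.05, where 31.1% of all 13636 genes tested were lower, and 4 were higher, where 30.4% of all genes were higher. The median log2 fold change of the 34 was -0.10, against 0.00 over all genes tested, and the members ranged from -0.34 (UTP20) to 0.19 (UTP4). Both 50 µM libraries lay below both H2O libraries in 25 members and above them in 6, while 3 overlapped (39.3% and 39.2% of all genes lay wholly below and wholly above). The summed level of the 34 genes was 8044 and 8107 CPM in H2O, 8128 and 8156 CPM at 10 µM and 7315 and 7349 CPM at 50 µM. In such bulk RNA, less RNA per cell and fewer cells of a kind cannot be told apart. DESeq2 kept 19 of the 27 calls, and a fit of all 14 libraries together kept 18. A required fold of at least 0.2 on the log2 scale left 10 lower and 0 higher. Of all 13636 genes, 2485 were lower and 2521 higher at that fold. Without the second H2O library, 18 were lower and 1 was higher.

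At 10 µM the genes stayed near the water level. In that comparison 5 of 34 were higher, where 11.6% of all genes were higher, and 0 were lower, where 11.1% were. The 5 were RRP1B (log2 fold change 0.10), NOP14 (0.09), POLR1A (0.09), NOLC1 (0.08) and NPM1 (0.04), and DESeq2 called 2 higher and 0 lower. Of members not lower by the adjusted p at 10 µM, PES1 came nearest, at -0.06 (adjusted p = 0.0551), and 8 of the 34 passed an unadjusted p of 0.05 in either direction. Without the second 10 µM library 3 were higher. The median member was at 0.00, as was the median of all genes.

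Compared directly, 50 µM lay below 10 µM in 20 members (26.5% of all genes) and above it in 3 (26.2% of all genes), with a median of -0.12. Of the 5 genes higher at 10 µM, NOLC1, NPM1, NOP14 and RRP1B were also below H2O at 50 µM. These 4 of 34 members stand beside 1.06% of all genes called in both of these ways. DESeq2 and the fit of all 14 libraries together kept the 10 µM calls of NOLC1 and RRP1B and lost those of NPM1 and NOP14. Both also lost the 50 µM call of NOP14. The 10 µM call of NPM1 was lost with library totals, upper-quartile scaling and the replicate block as well. The 3 comparisons share libraries, so they are not independent of each other. RRP1B, a nucleolar protein of large subunit processing, went furthest in this pattern: it was at 242 and 242 CPM in H2O, 255 and 262 CPM at 10 µM and 211 and 207 CPM at 50 µM. Its 3 groups did not overlap, and the log2 fold change from 10 to 50 µM was -0.31 (SE 0.02, adjusted p = 6.05e-30).

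**Figure D2:**
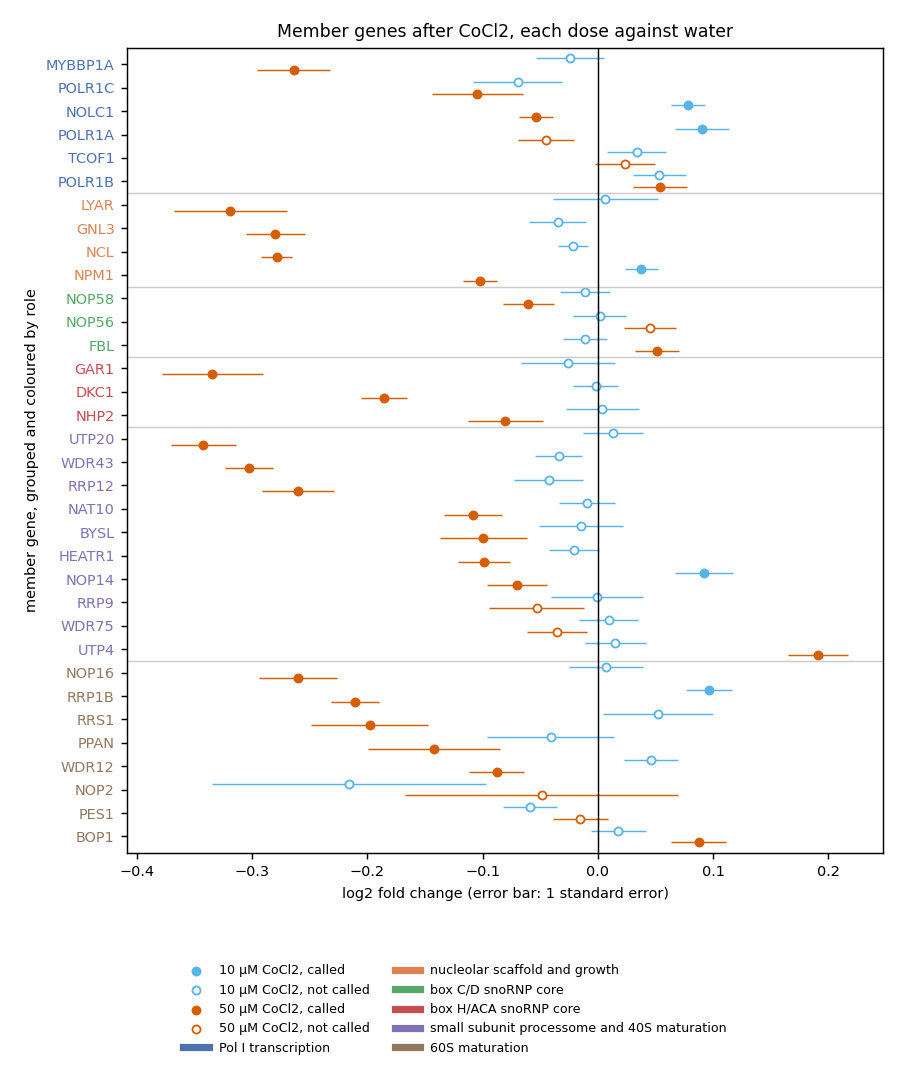
Log2 fold change (x axis, with 1 standard error) of each of the 34 genes (y axis, grouped by role) at 10 µM and 50 µM CoCl2 against water, n = 2 libraries per group. Filled points are called at an adjusted p under 0.05: 5 at 10 µM, all to the right of 0, and 27 at 50 µM, 23 of them to the left of 0.

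The nucleolar scaffold and growth genes all fell at 50 µM (4 of 4, where 31.1% of all genes were lower). NCL, an abundant RNA-binding protein of the nucleolus (chromosome 2, 231453531 to 231483641, minus strand), was at 2241 and 2271 CPM in H2O, 2231 and 2214 CPM at 10 µM and 1843 and 1876 CPM at 50 µM. The 50 µM libraries stood apart from the other 4. NCL fell by 17.6% against H2O (log2 fold change -0.28, SE 0.01, adjusted p = 3.00e-47). GNL3 (nucleostemin), a GTP-binding protein of dividing cells, was at 141 and 142 CPM in H2O, 138 and 139 CPM at 10 µM and 119 and 115 CPM at 50 µM. It too separated by the higher dose, with a log2 change of -0.28 (SE 0.03, adjusted p = 5.33e-20). LYAR, a zinc finger protein that promotes growth, was at 30.7 and 32.1 CPM in H2O and 25.0 and 25.3 CPM at 50 µM, a log2 change of -0.32 (SE 0.05). NPM1, a chaperone for ribosome assembly and histones, changed least of the 4: it was at 1049 and 1081 CPM in H2O, 1091 and 1096 CPM at 10 µM and 987 and 998 CPM at 50 µM, or -0.10 at the higher dose (SE 0.01, adjusted p = 3.30e-10).

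All 3 box H/ACA core proteins among the members were called lower at 50 µM (31.1% of all genes were), while the box C/D core proteins split by small changes. GAR1 binds the enzyme of the H/ACA particle. It was at 39.4 and 39.99 CPM in H2O, 39.1 and 38.9 CPM at 10 µM and 31.3 and 31.6 CPM at 50 µM. This is a gap of more than 7 CPM with differences between replicates under 1 CPM, and a log2 change of -0.33 (SE 0.04, adjusted p = 1.05e-11). DKC1, the pseudouridine synthase of the particle, fell from 261 and 265 CPM in H2O to 229 and 233 CPM at 50 µM, a log2 change of -0.19 (SE 0.02). NHP2, another core protein, was lower by less, at -0.08 (SE 0.03, adjusted p = 0.0254), a call lost by DESeq2 (adjusted p = 0.167) and without the first H2O library (adjusted p = 0.332). NOP10, the core protein that is not one of the 34, was at -0.09 (adjusted p = 0.013). In the box C/D particle FBL (fibrillarin), the methyltransferase, was at 294 and 294 CPM in H2O, 293 and 291 CPM at 10 µM and 303 and 306 CPM at 50 µM. It was slightly higher at 50 µM (0.05, SE 0.02, adjusted p = 0.0154). Its partner NOP58 was slightly lower (-0.06, SE 0.02, adjusted p = 0.0127), and NOP56 was at 0.05 (adjusted p = 0.0778), short of a call. Neither FBL nor NOP58 was called by DESeq2 or in a fit of all 14 libraries together.

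Genes of the small subunit processome and 40S maturation held both ends of the range, with 7 of 10 lower and 1 higher at 50 µM (31.1% and 30.4% of all genes). UTP20, a scaffold protein of the processome (chromosome 12, 101280105 to 101386618, plus strand), was at 118 and 115 CPM in H2O, 117 and 119 CPM at 10 µM and 93.7 and 90.8 CPM at 50 µM. It fell by 21.1%, the greatest fall among the 34 members (log2 fold change -0.34, SE 0.03, adjusted p = 1.12e-23). WDR43, a processome component, was at 255 and 262 CPM in H2O and 213 and 206 CPM at 50 µM (-0.30, SE 0.02). RRP12, which acts in export of the small subunit, was at 91.6 and 88.9 CPM in H2O and 75.5 and 75.2 CPM at 50 µM (-0.26, SE 0.03). The libraries of these 3 genes did not overlap between H2O and 50 µM. UTP4 (cirhin), a processome protein like UTP20, moved the other way (chromosome 16, 69131291 to 69231130, plus strand). It was at 112 and 114 CPM in H2O, 113 and 114 CPM at 10 µM and 128 and 129 CPM at 50 µM, a rise of 14.2% (log2 fold change 0.19, SE 0.03, adjusted p = 7.51e-11). NAT10, an RNA acetyltransferase, was lower by 0.11 on the log2 scale, and HEATR1, BYSL and NOP14 were also lower, with fold changes between -0.10 and -0.07. RRP9, which binds the U3 RNA, was at -0.05 (adjusted p = 0.264) and WDR75 at -0.04 (adjusted p = 0.234).

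Among the Pol I genes, 3 of 6 were lower and 1 was higher at 50 µM (31.1% and 30.4% of all genes). MYBBP1A, a repressor of Pol I that also takes part in processing its transcript, was at 85.8 and 84.1 CPM in H2O, 85.3 and 82.0 CPM at 10 µM and 69.7 and 71.6 CPM at 50 µM. It fell clear of the other libraries, with a log2 change of -0.26 (SE 0.03, adjusted p = 1.41e-13). The polymerase subunits moved little. POLR1B, the subunit paired with the catalytic one, was at 0.05 (adjusted p = 0.0372) and POLR1A, the catalytic subunit, at -0.04 (adjusted p = 0.0978). POLR1C, which is shared with Pol III, was at -0.10 (adjusted p = 0.0165). NOLC1, a chaperone of small nucleolar particles, was at 865 and 869 CPM in H2O, 920.2 and 910.5 CPM at 10 µM and 836 and 835 CPM at 50 µM, so its 3 groups were separate. TCOF1 (treacle), which helps to recruit Pol I, was at 0.02 (adjusted p = 0.436).

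Of the 60S maturation genes, 5 of 8 were lower and 1 was higher at 50 µM (31.1% and 30.4% of all genes). The PeBoW complex, a trio needed to process the large subunit RNAs, did not move as a unit: WDR12 was at -0.09 (adjusted p = 0.00078), PES1 at -0.02 (adjusted p = 0.595) and BOP1 at 0.09 (adjusted p = 0.000808). NOP16, a nucleolar protein known as a MYC target, was at 68.8 and 67.7 CPM in H2O, 68.6 and 68.6 CPM at 10 µM and 57.0 and 57.0 CPM at 50 µM. It was lower only at the higher dose, by a log2 change of -0.26 (SE 0.03, adjusted p = 1.13e-11). RRP1B was at -0.21, RRS1 at -0.20 and PPAN at -0.14, each called lower. NOP2, an RNA methyltransferase with few counts, was at -0.05 (SE 0.12, adjusted p = 0.742), a standard error larger than many of the changes called in other members.

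**Figure D3:**
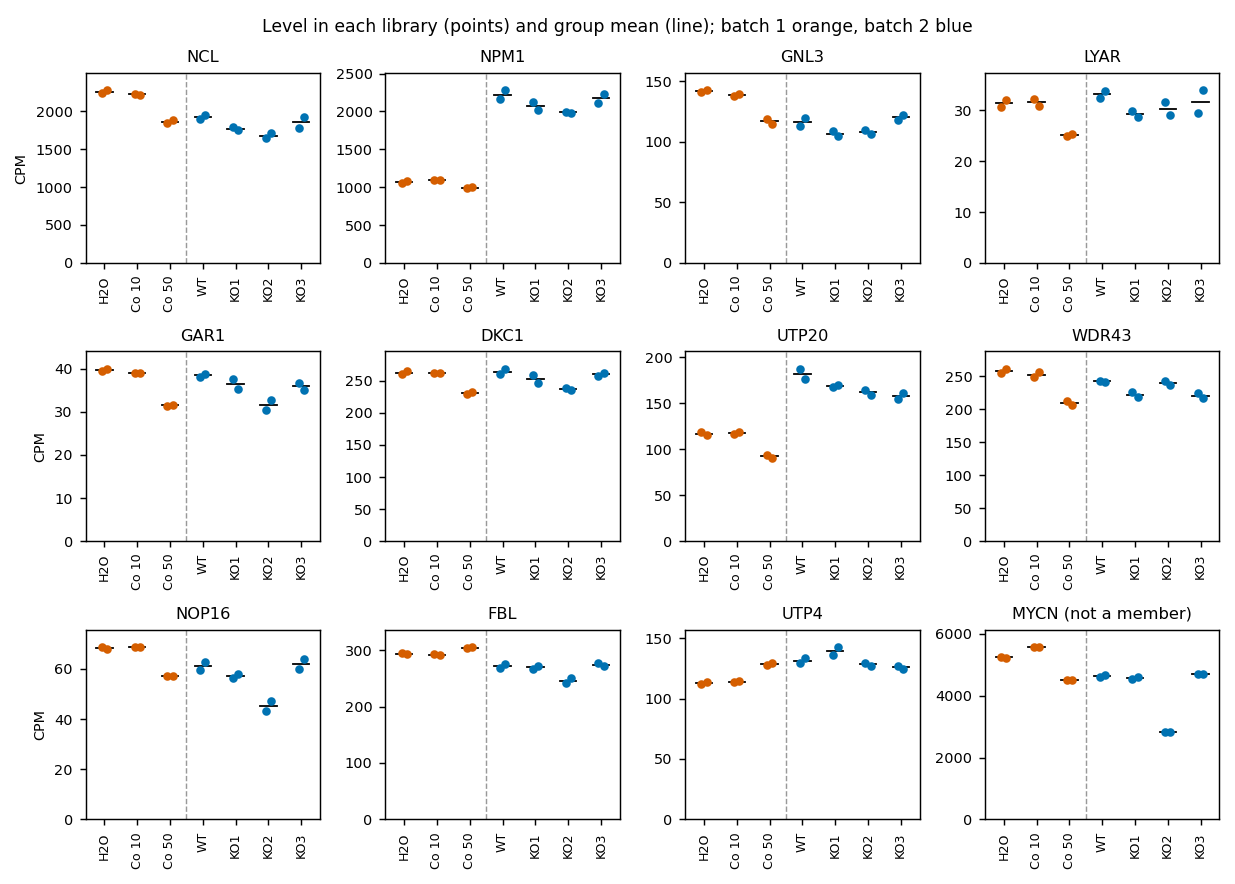
CPM (y axis, from 0) of 11 member genes and of MYCN in each library (points) with the group mean (line), batch 1 in orange and batch 2 in blue. NCL, GNL3, LYAR, GAR1, DKC1, UTP20, WDR43 and NOP16 were called lower at 50 µM and not at 10 µM CoCl2, and FBL and UTP4 were called higher at 50 µM. NCL, NPM1, GAR1, DKC1, NOP16, FBL and MYCN have their lowest batch 2 mean in labelled knockout 2.

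Against WT, the labelled TET2 knockouts gave unequal counts of changed members. Knockout 2 had 15 of 34 members lower than WT, where 14.3% of all 14061 genes tested were lower, and 0 higher, where 12% were; DESeq2 called 14 lower and 0 higher. At an unadjusted p under 0.05, 20 members passed in either direction. Knockout 1 had 6 lower (9.72% of all genes) and 1 higher (7.79% of all genes). Knockout 3 had 7 lower (9.96% of all genes) and 1 higher (8.9% of all genes). The median log2 fold changes of the 34 genes were -0.05, -0.10 and -0.03 in knockouts 1, 2 and 3, against 0.00 for all genes in each. All 3 were set against the same 2 WT libraries. The summed level of the members was 8905 and 9127 CPM in WT, 8536 and 8699 CPM in knockout 1, 8139 and 8260 CPM in knockout 2 and 8630 and 8893 CPM in knockout 3.

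Single libraries moved the counts for knockouts 1 and 3. Without the second knockout 1 library, 1 member was lower and 0 were higher in knockout 1, without the first WT library 0 were higher, and without the first knockout 1 library 2 were higher. Without the first knockout 3 library or the first WT library, 4 were lower and 0 higher in knockout 3, without the second WT library 0 were higher, and without the second knockout 3 library 2 were higher. In knockout 2 the count of lower members stayed between 11 and 17 when any 1 library was left out.

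A single test of the difference among the 3 knockouts found that 19 of 34 members differed, where 37.6% of all genes did. Set against the mean of knockouts 1 and 3, knockout 2 was lower in 14 members (17.4% of all genes) and higher in 2, NOP58 and WDR43 (17.8% of all genes). Leaving out the first knockout 2 library gave 10 lower and 0 higher, and 1 was higher without the second knockout 2 library, the second knockout 1 library or the first knockout 3 library. No member was called in opposite directions against WT in different knockouts. Of the 34, 10 were called lower in knockout 2 and not in the other labelled knockouts, where 9.08% of all genes were: NOLC1, MYBBP1A, FBL, NOP56, DKC1, GAR1, RRP12, NOP14, WDR12 and NOP16. The direct test placed 8 of these below the mean of knockouts 1 and 3, and NOLC1 (-0.04, adjusted p = 0.191) and NOP14 (-0.02, adjusted p = 0.776) did not pass it. These 10 were picked by calls from the same libraries, which favours passing, so the direct test is not independent of that choice.

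**Figure D4:**
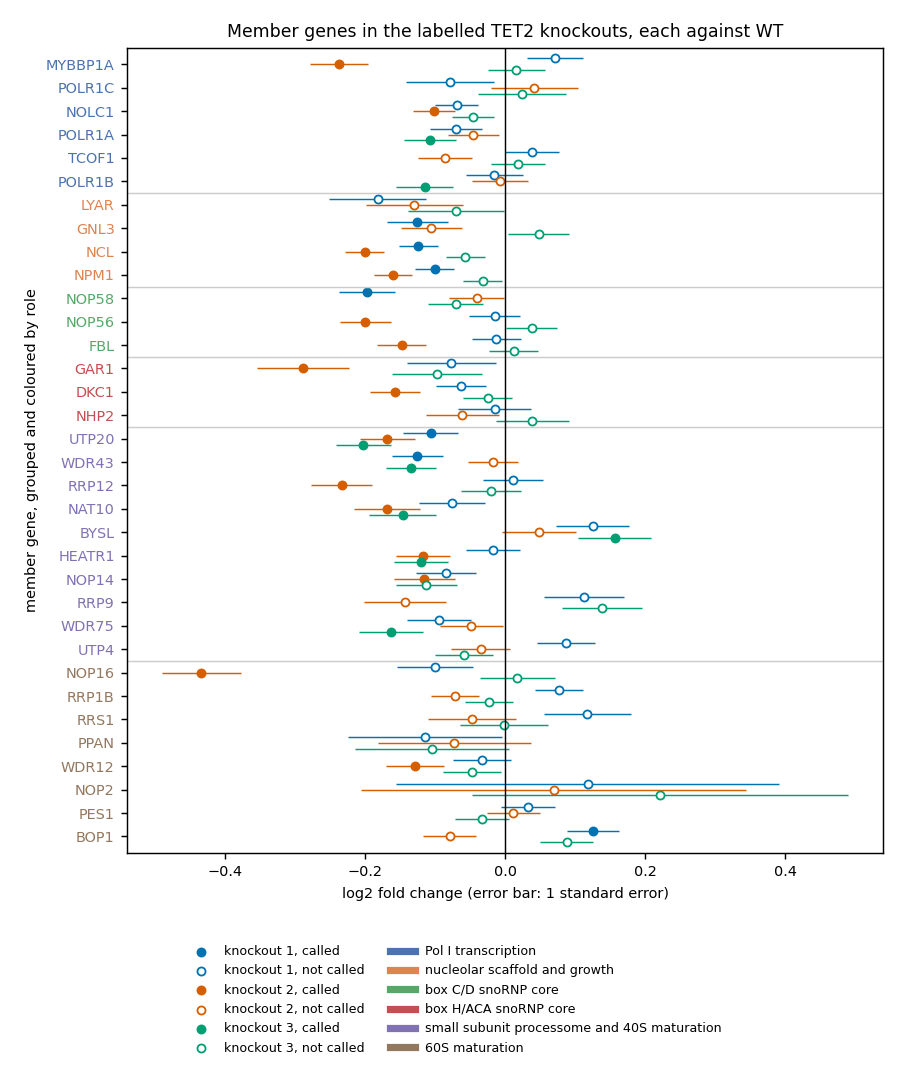
Log2 fold change (x axis, with 1 standard error) of each of the 34 genes (y axis, grouped by role) in labelled TET2 knockouts 1, 2 and 3 against WT, n = 2 libraries per group. Filled points are called at an adjusted p under 0.05; for knockout 2 there are 15, all to the left of 0, with NOP16 furthest at -0.43.

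NOP16 stood lowest in knockout 2 (chromosome 5, 176383938 to 176388975, minus strand). It was at 59.5 and 62.7 CPM in WT, 56.2 and 57.8 CPM in knockout 1, 43.2 and 47.3 CPM in knockout 2 and 59.8 and 64.1 CPM in knockout 3. Both knockout 2 libraries were below the other 6. The log2 fold change was -0.43 against WT (SE 0.06, adjusted p = 1.72e-11) and -0.39 against the mean of knockouts 1 and 3 (SE 0.05, adjusted p = 3.01e-12). NOP16 shares 19.8% of its exon bases with genes on the opposite strand.

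Both box C/D proteins that had not fallen under CoCl2 were lower in knockout 2. FBL was at 269 and 276 CPM in WT, 267 and 273 CPM in knockout 1, 241 and 250.1 CPM in knockout 2 and 277 and 272 CPM in knockout 3. The knockout 2 libraries were lowest, at a log2 change of -0.15 (SE 0.04, adjusted p = 0.000377). NOP56, which holds the box C/D particle together with NOP58, was at 229 and 248 CPM in WT, 235 and 238 CPM in knockout 1, 202 and 214 CPM in knockout 2 and 248 and 242 CPM in knockout 3, or -0.20 in knockout 2 (SE 0.04, adjusted p = 2.54e-06). NOP58 had another order: it was at 172 and 183 CPM in WT, 162 and 148 CPM in knockout 1, 174 and 171 CPM in knockout 2 and 167 and 171 CPM in knockout 3. It was called lower in knockout 1 (-0.20, SE 0.04, adjusted p = 2.92e-05) and not in knockout 2 (-0.04, adjusted p = 0.49), and the knockouts differed (adjusted p = 0.00119). Among the box H/ACA proteins GAR1 was at 38.1 and 38.8 CPM in WT, 37.6 and 35.4 CPM in knockout 1, 30.4 and 32.7 CPM in knockout 2 and 36.7 and 35.1 CPM in knockout 3. Its fold change in knockout 2 was -0.29 (SE 0.07, adjusted p = 0.000188), beside -0.16 for DKC1 (adjusted p = 0.000164) and -0.06 for NHP2 (adjusted p = 0.428).

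MYBBP1A and RRP12 were likewise lowest in knockout 2. MYBBP1A was at 156 and 155 CPM in WT, 157 and 169.9 CPM in knockout 1, 126 and 138 CPM in knockout 2 and 158 and 157 CPM in knockout 3 (knockout 2, -0.24, SE 0.04, adjusted p = 5.54e-07). RRP12 was at 120.3 and 125 CPM in WT, 120.4 and 126 CPM in knockout 1, 103 and 106 CPM in knockout 2 and 124 and 117 CPM in knockout 3 (knockout 2, -0.23, SE 0.04, adjusted p = 3.58e-06). In both genes the knockout 2 libraries were below the other 6, and knockouts 1 and 3 were not called. RRP9 was not called against WT in any knockout, yet knockout 2 (42.4 and 42.7 CPM) lay below knockouts 1 (50.0 and 51.6 CPM) and 3 (52.2 and 51.1 CPM), by -0.27 (SE 0.05, adjusted p = 3.08e-06). BOP1 followed a like order, at 207 and 216, 179.9 and 188, and 212 and 199.9 CPM in knockouts 1, 2 and 3, with 192 and 196 CPM in WT. It was the member called higher in knockout 1 (0.13, SE 0.04, adjusted p = 0.00867), as BYSL was in knockout 3 (0.16, SE 0.05, adjusted p = 0.0203).

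Of the 4 scaffold genes, 3 were lower in knockout 1, 2 in knockout 2 and 0 in knockout 3 (9.72%, 14.3% and 9.96% of all genes). NCL was at 1897 and 1952 CPM in WT, 1785 and 1747 CPM in knockout 1, 1645 and 1706 CPM in knockout 2 and 1783 and 1918 CPM in knockout 3. Knockouts 1 (-0.12, adjusted p = 0.000282) and 2 (-0.20, adjusted p = 6.72e-10) were clear of WT, and knockout 3 overlapped it (-0.06, adjusted p = 0.154). NPM1 had the same order, at -0.10 (adjusted p = 0.00417), -0.16 (adjusted p = 6.87e-07) and -0.03 (adjusted p = 0.478), and GNL3 was called lower in knockout 1 (-0.13, adjusted p = 0.0314). Without the second knockout 1 library, the knockout 1 calls of NPM1 (adjusted p = 0.288) and GNL3 (adjusted p = 0.281) were lost. LYAR was at -0.18 (adjusted p = 0.053), -0.13 (adjusted p = 0.162) and -0.07 (adjusted p = 0.534), not called in any.

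Of the 10 processome and 40S genes, 5 were lower in knockout 3, 5 in knockout 2 and 2 in knockout 1 (9.96%, 14.3% and 9.72% of all genes). UTP20 was the one member called lower in all 3 (2.84% of all genes were), and its call in knockout 1 did not hold in several alternatives. It was at 187 and 176 CPM in WT, 168 and 169.7 CPM in knockout 1, 164 and 159 CPM in knockout 2 and 155 and 161 CPM in knockout 3, and no knockout library reached the WT libraries. Its fold changes were -0.11 (adjusted p = 0.0414), -0.17 (adjusted p = 0.00025) and -0.20 (adjusted p = 1.15e-05), and a difference among the knockouts was not detected (adjusted p = 0.108). In knockout 1 the adjusted p was 0.0624 with the replicate block, 0.0709 by DESeq2 and 0.0512 without the low-count filter. With 1 library left out it ranged from 0.0165 to 0.484, highest without the first WT library. WDR43 was lower in knockouts 1 (226 and 219 CPM) and 3 (225 and 217 CPM) than in WT (243 and 242 CPM), while knockout 2 (243 and 237 CPM) was higher than the mean of those knockouts by 0.11 (SE 0.03, adjusted p = 0.00181). WDR75 (-0.16), NAT10 (-0.15) and HEATR1 (-0.12) were also lower in knockout 3, and the Pol I subunits POLR1A and POLR1B were both at -0.11 there. DESeq2 kept 5 of the 8 member calls in knockout 3 and lost the lower calls of POLR1A and NAT10 and the higher call of BYSL.

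MYCN itself, which is not one of the 34, is given beside these results because the genes were chosen as MYC-responsive. It was at 5252 and 5231 CPM in H2O, 5577 and 5562 CPM at 10 µM and 4499.5 and 4497 CPM at 50 µM, so it was lowest where most members were lower. In batch 2 it was at 4599.8 and 4678 CPM in WT, 4548 and 4594 CPM in knockout 1, 2815 and 2837 CPM in knockout 2 and 4699.9 and 4715 CPM in knockout 3. Knockout 2, with the most members called lower, was the group with less MYCN (-0.72, SE 0.03, adjusted p = 9.33e-71). The sizes ran differently: at 50 µM MYCN fell by 14.2% and the median member's log2 fold change was -0.10, while in knockout 2 MYCN fell by 39.1% and the median member's was also -0.10. MYC was at or near 0 in batch 1 and, in batch 2, at 3.82 and 3.30 CPM in WT, 1.06 and 0.812 CPM in knockout 1, 2.58 and 2.39 CPM in knockout 2 and 0.786 and 1.25 CPM in knockout 3. It was called lower in each (-1.93, -0.52 and -1.83), least in knockout 2. MAX, the dimer partner of MYC proteins, was higher at 10 µM (0.15, adjusted p = 9.41e-06) and at 50 µM (0.19, adjusted p = 2.37e-09). The part of MYCN in the members' changes was not tested.

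**Figure D5:**
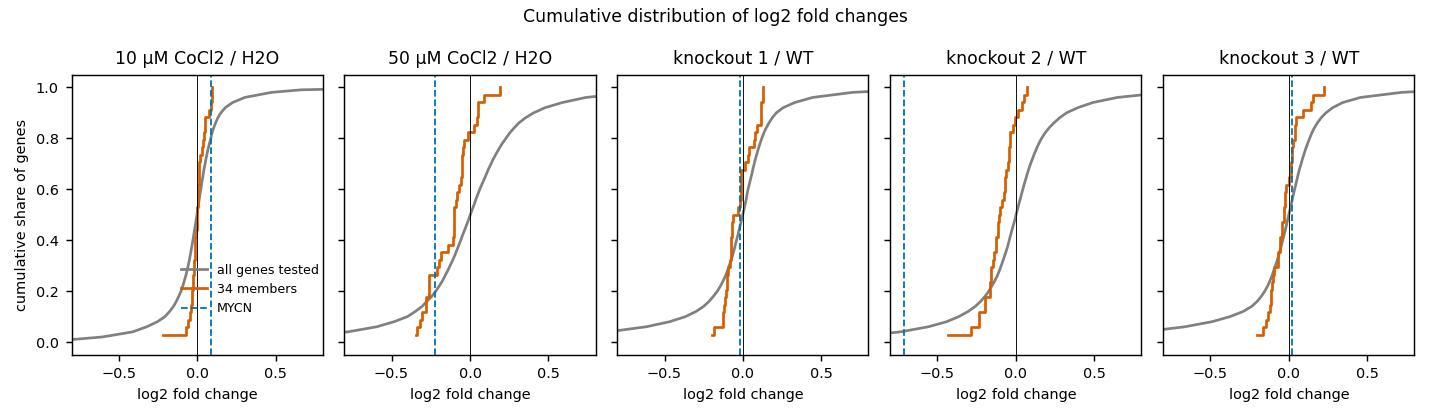
Cumulative share (y axis) of log2 fold changes (x axis, log2 scale) of the 34 members and of all genes tested in 5 comparisons, with the fold change of MYCN dashed. At 50 µM CoCl2 and in labelled knockout 2 the members' curve lies to the left of 0 for most of its length, with medians of -0.10 in both.

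In all, 13 of 34 members were lower both at 50 µM CoCl2 and in knockout 2, in batches with separate controls, as were 8.09% of the 13373 genes tested in both batches: NOLC1, MYBBP1A, NCL, NPM1, DKC1, GAR1, UTP20, HEATR1, RRP12, NOP14, NAT10, WDR12 and NOP16. No test was made of whether these calls coincide more than the separate counts would give. They make up 13 of the 23 lower at 50 µM and 13 of the 15 lower in knockout 2. Over the 13373 genes, 1082 were lower in both, out of 4188 lower at 50 µM and 1935 lower in knockout 2. The other 2 of the 15, FBL and NOP56, are both box C/D proteins. The members with little or no call were PES1 and NOP2, which passed no test named here, and TCOF1 and RRP9, which passed only tests between knockouts.

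The counts were also set out by presence of the E-box. At 50 µM 9 of the 14 with an E-box were lower and 2 higher, and 9 of the 13 with a window but no E-box were lower and 1 higher, with a median of -0.10 in both. In knockout 2 they were lower in 6 of 14 and 7 of 13. Over all tested genes with an E-box in the window, 34.5% of 1357 were lower and 27.8% higher at 50 µM, against 30.8% and 31.2% of 9485 with a window and no E-box. In knockout 2 the shares were 17.1% lower and 10.1% higher of 1378 genes with an E-box, and 13.6% and 12.5% of 9777 without.

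The same process was followed in 135 other ribosome biogenesis genes tested. At 50 µM 66 were lower and 28 higher, with a median of -0.07, so the members' 23 of 34 lower (67.6%) stands beside 48.9% of these and 31.1% of all genes. By role, 26 of 47 other processome and 40S genes, 22 of 48 other 60S genes, 7 of 14 other Pol I genes, 5 of 11 other snoRNP genes and 6 of 15 exosome genes were lower. The largest falls were in DHX37 (-0.50), a helicase that releases the U3 particle, PWP2 (-0.44), a processome protein at 6.99 CPM in H2O, and LTV1 (-0.44), a 40S assembly factor. The largest rises were in ZNF622 (0.36), a 60S maturation factor, and DDX24 (0.32), a helicase of 60S assembly. Pol III subunits had 7 of 11 lower, with POLR3GL, the alternative form of one subunit, highest (0.26).

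At 10 µM 21 of the 135 were higher and 7 lower (11.6% and 11.1% of all genes). ZNF622 (0.14), DDX24 (0.13) and RCL1 (0.12) rose most, and DDX51 (-0.16), NLE1 (-0.14) and EXOSC5 (-0.11) fell most. From 10 to 50 µM 69 of 135 fell and 21 rose (26.5% and 26.2% of all genes). DDX10 (-0.43), DHX37 (-0.43) and LTV1 (-0.40) fell most, and ZNF622 (0.22), DDX24 (0.18) and RRP8 (0.18) rose most. In knockout 2 26 of 135 were lower and 8 higher (19.3% and 5.93%), beside 44.1% and 0% of the members and 14.3% and 12% of all genes. TAF1D (-0.41), a Pol I promoter factor, was lower there and in knockout 1 (-0.46), and DDX47 (-0.83, SE 0.31) was lower at under 1 CPM. The Pol III subunit POLR3G (-0.37), outside the 135, was lower in knockout 2. Of the 135, RRN3 (0.22), which makes Pol I competent to start, RRP7A (0.21) and SBDS (0.18) were higher. In knockout 1 14 were lower and 7 higher (9.72% and 7.79% of all genes), with MDN1 (-0.35) and DDX10 (-0.31) lower and EXOSC5 (0.18) and ISG20L2 (0.17) higher. In knockout 3 13 were lower and 4 higher (9.96% and 8.9% of all genes), with BMS1 (-0.23) and UTP14A (-0.19) lower and NLE1 (0.16), PIH1D1 (0.16) and RUVBL2 (0.14) higher. The Pol III subunit POLR3B, outside the 135, was lower in knockout 3 (-0.18). Knockout 2 lay below the mean of knockouts 1 and 3 in 30 of 135 (17.4% of all genes), led by CD3EAP (-0.41), PIH1D1 (-0.31) and WDR46 (-0.30). It lay above that mean in 15 (17.8% of all genes), led by RRN3 (0.29), RIOK2 (0.28) and NGDN (0.24).

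Other gene groups are given for comparison by counts. Of all genes tested, 31.1% were lower and 30.4% higher at 50 µM, and 14.3% and 12% in knockout 2. In knockout 1 9.72% of all genes were lower and 7.79% higher, and in knockout 3 9.96% and 8.9%. Of 24 MYC-responsive genes outside the nucleolus, 14 were lower and 5 higher at 50 µM, and 10 lower and 4 higher in knockout 2, with 4 higher and 0 lower in knockout 1 and 2 higher and 0 lower in knockout 3. Of 20 proliferation genes, 11 were lower and 8 higher at 50 µM, and 10 were higher and 1 lower in knockout 2, where 15 nucleolar genes were lower. In knockout 3 17 of the 20 were higher. Of 16 p53 target genes, 7 were higher and 2 lower at 50 µM, and 4 were higher and 1 lower in knockout 2. The part of proliferation and of p53 activity in the nucleolar results was not tested.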

How the data were processed

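Raw counts per gene name were deposited for 14 libraries. These raw counts came from featureCounts, per the file headers, run over exons of GENCODE release 33 protein-coding genes, with version 1.5.3 in batch 1 and 2.0.5 in batch 2, and gave no strand option. The submitters' processing notes name Trimmomatic 0.36, STAR 2.6.1d, Subread 1.5.3 and GRCh38. Batch 1 counts were fragments. In batch 2 between 77.3% and 80.5% of counts from 1 to 10 were even (39.0% to 42.3% in batch 1), so most were reads, 2 to a fragment, and batches were not compared.

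Each batch was fitted alone with edgeR 4.0.16 under R 4.3.3 (filterByExpr on groups, minimum count 10; TMM; glmQLFit with robust = TRUE and legacy = FALSE; glmQLFTest), over 13636 and 14061 genes. The dispersion was kept at 1e-04 or above (batch 1 estimate 7.66e-05). A gene counts as called where its p, adjusted by Benjamini and Hochberg over all genes tested, is under 0.05. Standard errors are |log2 fold change| over √F. CPM uses TMM-scaled totals, and RPKM divides it by exon length. DESeq2 1.42.0 was an alternative. Replicate pairs of batch 1 differed by more than counting noise (chi-square per gene 1.23 to 1.46), and each library counted once. In batch 2 the value was 3.86 to 5.52, but reads counted 2 to a fragment raise it by themselves. These values do not show whether replicates were separate cultures. The code was tested on simulated data.

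All 34 members are named whatever their values, with MYCN, MYC, MAX and TET2, and, of the other ribosome biogenesis genes, in each comparison the 3 called genes with the largest rise and fall; 1 gene that met this rule is not reported here. NOP10 was added after the members' values were seen. The members and lists were chosen with earlier results of these data known. RefSeq promoter windows (GRCh38.p14) were searched on both strands for the motifs spelled out above.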

Additional observations from a re-analysis of the deposited data

Results flagged for a closer look

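The effect of the TET2 label differed among the 3 labelled knockouts in 19 of the 34 members, by edgeR's F-test of the difference with Benjamini-Hochberg adjustment over all 14061 genes, of which 37.6% differed. The size given is the highest minus the lowest of the 3 log2 fold changes against WT. It was 0.451 for NOP16, 0.308 for MYBBP1A, 0.281 for RRP9, 0.244 for RRP12, 0.237 for NOP56, 0.211 for GAR1 and 0.205 for BOP1, and knockout 2 was the lowest of the 3 in each of these genes. It was 0.173 for GNL3, 0.16 for FBL, 0.156 for NOP58, 0.148 for RRP1B, 0.146 for UTP4 and 0.144 for NCL. It was 0.132 for DKC1, 0.128 for NPM1, 0.124 for TCOF1, 0.117 for WDR43, 0.107 for POLR1B and 0.102 for HEATR1. The median over the 34 members was 0.13, and over all genes tested 0.19. What sets the knockouts apart was not tested.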

How the results depend on the processing

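Counts are of members called. No direction among the called members changed in any alternative. Requiring a log2 change of at least 0.2 left 0 higher in every comparison, where 329 (10 µM) to 2521 (50 µM against H2O) of all genes were higher. It left 10 lower at 50 µM (2485 of all 13636 genes) and 11 lower from 10 to 50 µM (1791 of 13636). In knockouts 1, 2 and 3 it left 0, 4 and 1 lower (987, 1343 and 925 of all 14061 genes). It left 6 lower in knockout 2 against the mean of knockouts 1 and 3 (1369 of 14061) and 7 that differed among knockouts (3689 of 14061). DESeq2 gave 2 higher at 10 µM, 2 at 50 µM, 0 in knockout 3 and 1 in knockout 2 against that mean. At 50 µM DESeq2 kept 19 of the 27 calls, losing POLR1B, POLR1C, FBL, NOP58, NHP2, NOP14, BYSL and PPAN. The fit of all 14 libraries together kept 18, losing these and BOP1. Fitting all 14 libraries together gave 2 higher at 10 µM, 1 at 50 µM, 1 from 10 to 50 µM, 5 in knockout 1 and 3 in knockout 3. Library totals without TMM gave 2 lower at 10 µM, and 9 lower and 5 higher in knockout 2 against the mean. Upper-quartile scaling gave 5 higher from 10 to 50 µM, and the legacy fit and no low-count filter each gave 2 higher at 50 µM. The cause of these shifts was not tested. With 1 library left out, the remaining library of its group being assumed to vary like the other groups, the counts ranged from 3 to 5 higher and 0 to 1 lower at 10 µM, 1 to 4 higher and 18 to 23 lower at 50 µM, and 2 to 3 higher and 18 to 22 lower from 10 to 50 µM. They ranged from 0 to 2 higher and 1 to 7 lower in knockout 1, 11 to 17 lower in knockout 2, 0 to 2 higher and 4 to 7 lower in knockout 3, 0 to 2 higher and 10 to 14 lower in knockout 2 against the mean, and 14 to 20 that differed. Replicate numbers showed little sign of pairing the libraries. Replicate differences of different groups correlated across genes at -0.003 to 0.019 in batch 1 and -0.036 to 0.074 in batch 2. Such correlations cannot exclude a weak pairing. With the replicate block 4 were higher at 10 µM, 4 higher and 23 lower at 50 µM, 1 higher and 5 lower in knockout 1 and 15 lower in knockout 2. Low counts limit NOP2 above all, with 72 in its lowest WT library.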
